A study of Homo sapiens with 2 samples.

Results

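The genes described here are transcripts that ERK signaling is known to induce and that mostly act back on the same pathway. They are the phosphatase genes DUSP4, DUSP5 and DUSP6, the inhibitor genes SPRY2, SPRY4 and SPRED1, the transcription factor genes ETV4, ETV5 and FOSL1, and PHLDA1. Every probe whose gene symbol in the deposited annotation was 1 of these names was taken, which gave 12 probes for 10 genes, of 58199 probes and 34757 gene symbols on the array. The rule uses names and no measured value. RNA was taken from A375 cells, a human melanoma cell line, after transfection with an siRNA against THOC2 (si-THOC2) or with a control siRNA (NC) that has no intended human target, and the labels place the harvest at 48 h. THOC2 is a subunit of the THO complex, which links transcription to mRNA export. Each condition was measured on 1 array, a 1-colour SurePrint G3 v3 design from Agilent with probes of 60 bases. There were no replicates, so no test was possible and how far cultures vary is unknown. Every difference below is that of these 2 arrays. The methods list several THOC2 siRNAs and do not say which was used here. The labels name a DMEM medium with serum where the methods name RPMI, and the design text speaks of transduction where the methods describe a lipid transfection.

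In the ERK pathway, growth factor receptors activate RAS, RAS activates the RAF kinases, RAF phosphorylates MEK, and MEK phosphorylates ERK. A375 cells carry an activating BRAF mutation, which keeps the pathway on without a signal from the receptors. Active ERK induces its own brakes: DUSP proteins remove the phosphates from ERK, and Sprouty and SPRED proteins act further up, at the level of RAS and RAF. The mRNA levels of these genes are therefore widely read as a measure of ERK output in melanoma cells.

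Probes are short stretches of transcript, and a gene with a pair of probes is read at 2 places. The first 30 of the 60 bases are given for the member with the largest difference and for the genes read by more than 1 probe. They were copied from the deposited array annotation, 5′ to 3′, and no base is marked in capitals because no motif was searched.
DUSP5 (chr10:112270900-112270959, plus strand): tgggaaaagagttcttcagatcatagacca
SPRY4, probe 1 (chr5:141690571-141690630, minus strand): tcgccatcatacctcgagtgaggcccagct
SPRY4, probe 2 (chr5:141694487-141694546, minus strand): tgaagaccagccatgtggagaatgactaca
PHLDA1, probe 1 (chr12:76419627-76419686, minus strand): tacaggatctaaaagggttttcttagaaag
PHLDA1, probe 2 (chr12:76426022-76426081, minus strand): ttgctttaacaatcgccctctttccaagaa
Positions here and below are those of the deposited annotation on hg19, and whether a probe lies in a coding exon or a UTR was not analysed here.

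The arrays were read through the processed signal, the fluorescence of a spot after background subtraction, in arbitrary units. For both samples the source field names the opposite condition to the title and description, and the titles and descriptions were followed. THOC2, the targeted gene, had a signal of 136 on the NC array and 40.9 on the si-THOC2 array at its first probe (chrX:122734486-122734545) and of 67.3 and 35.1 at its second (chrX:122747960-122748019). After scaling, described next, its log2 differences were -1.42 and -0.63, so both probes were lower on the array that the titles assign to si-THOC2. Directions below rest on that assignment. The whole si-THOC2 array was dimmer: the 75th percentile of the log2 signal over all probes was 6.62 with NC and 6.31 with si-THOC2. Each array was therefore reduced by its own 75th percentile, which adds 0.31 to every log2 difference. A log2 difference below is si-THOC2 minus NC after this scaling, and 1 on this scale is a 2-fold difference. By the scanner software, 42.3% of probes were well above background with NC and 39.4% with si-THOC2, and no spot was saturated. Both arrays lay on 1 slide and were read in 1 scan, so the conditions were compared within 1 slide and 1 scan, and no second slide was available. Probes printed on several spots give the technical error inside these arrays: the log2 difference of a single spot had a median SD of 0.05 over 88 probes with a log2 signal between 10 and 12, and of 0.10 over 36 probes between 6 and 8. This technical SD is spot-to-spot variation alone. It does not include differences between cultures, or between RNA preparations, labelings and hybridizations, which all spots of a probe on an array share.

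No ERK feedback or output gene reached a 2-fold difference in either direction. Of the 12 member probes, 11 were detected on both arrays, which means that the scanner software called them well above background. Of these 11, 0 were 2-fold lower and 0 were 2-fold higher. Of all 25345 probes compared, 3.33% were 2-fold lower and 2.93% were 2-fold higher. Most of those calls were at dim probes, whereas 10 of the 11 member probes had signals above 128 on both arrays. Of the 12373 probes that bright with both siRNAs, 0.145% were lower and 0.202% higher by 2-fold, so a count of 0 lies at that background and is no result about the members. After scaling, 5 member genes lay above 0 and 5 below, with a median log2 difference of 0.02. The median over all 17514 genes compared was 0.02 as well, and 53.4% of them lay above 0. That background includes dim probes, and the bright probes alone had a median log2 difference of 0.06. Before scaling, 2 member probes, those of DUSP4 and DUSP5, had the higher signal on the si-THOC2 array and 9 the lower.

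**Figure D1:**
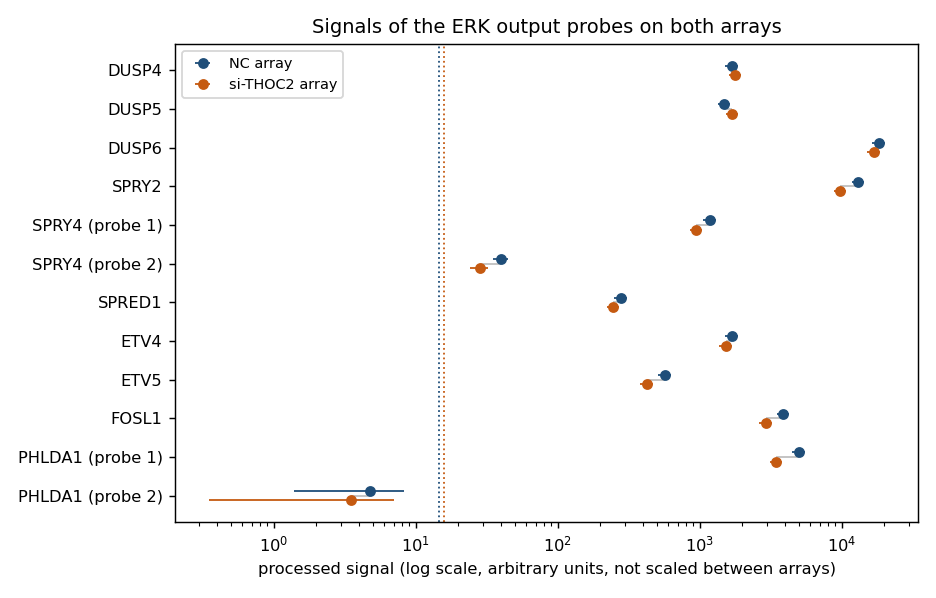
Processed signal of the 12 probes (horizontal axis, log scale, arbitrary units, not scaled between arrays) on the NC array (blue) and the si-THOC2 array (orange). Bars are the error that the scanner software gives for each signal, shortened where they would reach 0, and dotted lines mark, for each array, the dimmest signal called well above background (14.7 and 15.9). The points of a probe lie close together, orange is to the right of blue for DUSP4 and DUSP5 alone, and the second PHLDA1 probe lies under both dotted lines.

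The phosphatases gave the highest values of the group under the scaling used here. DUSP5, a nuclear phosphatase specific for ERK, had a signal of 1497 on the NC array and 1702 on the si-THOC2 array. The si-THOC2 array was the higher one even before scaling, and the scaled log2 difference was 0.49, or 1.41-fold, with a technical SD of 0.06. Among the 1657 probes whose mean log2 signal lay within 0.5 of that of DUSP5, 1.27% had a difference as high. DUSP4 (chr8:29194382-29194441), an inducible nuclear phosphatase that acts on ERK and related kinases, gave a signal of 1691 after NC and 1787 after si-THOC2. Its order was the same as that of DUSP5, the log2 difference was 0.39 with a technical SD of 0.05, and 4.18% of probes of like signal were as high. DUSP6 (chr12:89742144-89742203), the cytoplasmic phosphatase of ERK, gave a signal of 18306 after NC and 16855 after si-THOC2. Here the raw signal was lower with si-THOC2 while the scaled log2 difference was 0.19 (technical SD 0.03), so its direction rests on the scaling. A scaled difference as high was found in 23.5% of probes of like signal.

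The Sprouty and SPRED genes lay close to 0. SPRY2 (chr13:80910622-80910681), an inhibitor of receptor signaling to RAS and RAF, gave a signal of 13162 after NC and 9786 after si-THOC2. The NC array was the higher one, and after scaling the log2 difference was -0.12 with a technical SD of 0.04, with 10.8% of probes of like signal as low. SPRY4, its paralog, was read by both probes shown above. The first gave a signal of 1184 after NC and 951 after si-THOC2, which after scaling was a log2 difference of -0.01 (technical SD 0.05). The second gave a signal of 39.9 after NC and 28.3 after si-THOC2 and a log2 difference of -0.19, with a technical SD of 0.15. The values of the SPRY4 probes differed by little more than that SD. SPRED1 (chr15:38645760-38645819), which brings neurofibromin to the membrane to inactivate RAS, gave a signal of 278 after NC and 246 after si-THOC2. Its raw signal was lower with si-THOC2 and its scaled log2 difference was 0.13 (technical SD 0.08), so its direction too rests on the scaling, and 31.6% of probes of like signal were as high.

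The transcription factors, like the Sprouty and SPRED genes, differed in sign among themselves. ETV4 and ETV5 are the PEA3-type ETS factors that ERK signaling induces together. ETV4 (chr17:41605966-41606025) gave a signal of 1689 after NC and 1527 after si-THOC2, with a scaled log2 difference of 0.16 (technical SD 0.06) that was below 0 before scaling. ETV5 (chr3:185764547-185764606) gave a signal of 569 after NC and 424 after si-THOC2, with a scaled log2 difference of -0.12 (technical SD 0.07). These paralogs thus lay on either side of 0, with 29.2% of probes of like signal as high as ETV4 and 23.5% as low as ETV5. FOSL1 (chr11:65660098-65660157) encodes FRA1, a subunit of the AP-1 transcription factor. It gave a signal of 3881 after NC and 2929 after si-THOC2, a log2 difference of -0.10 (technical SD 0.04), and 16.3% of probes of like signal were as low.

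PHLDA1 encodes a pleckstrin-homology-like protein and is a common member of ERK output signatures. Its first probe gave a signal of 5016 after NC and 3460 after si-THOC2. The log2 difference of -0.23 (technical SD 0.04) was the lowest among the members, and 5.95% of probes of like signal were as low. Its second probe was not well above background on either array and was not compared.

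Of the 11 member probes, 10 differed from 0 by more than 1 technical SD and 7 by more than 2. The same share was not counted over all probes, and bright probes as a whole spread more widely than these technical SDs. The counts are therefore no result about the members. The error that the scanner software assigns to each signal is wider than the technical SD. It was about 0.20 on the log2 scale for the difference of a bright member probe and 0.28 for the second SPRY4 probe. By that error, 1 probe (DUSP5) lay more than 2 standard errors from 0. That share was not counted over all probes either, so this count too is no result about the members. All bright probes together had a median log2 difference of 0.06 and an SD of 0.23, and their central 90% ran from -0.33 to 0.39. Of the 10 bright member probes, 9 lay inside that range, and DUSP5 lay above it. In the blocks of neighbouring spots that hold the member probes, the median log2 difference ran from -0.06 to 0.05.

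**Figure D2:**
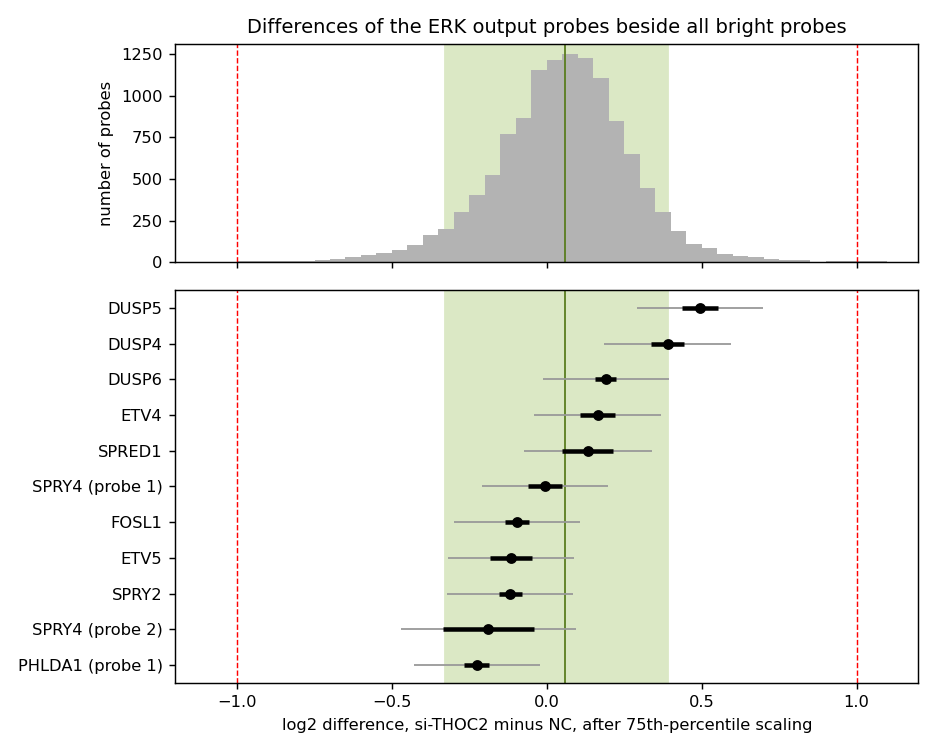
The upper panel counts all 12373 bright probes by scaled log2 difference, si-THOC2 minus NC (probes beyond the axis are not drawn), and the lower panel gives the 11 member probes on the same axis, with thick bars for 1 technical SD and thin bars for 1 standard error from the scanner software. The green band is the central 90% of bright probes, the green line their median, and red dashed lines mark 2-fold. DUSP5 lies above the band, DUSP4 near its upper edge, and no member comes near 2-fold.

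The members kept their signs when the arrays were processed in 10 other ways that place both arrays on a common scale. DUSP5 stayed between 0.40 and 0.49 and DUSP4 between 0.25 and 0.48, the highest values of the group in each. DUSP6 ran from 0.05 to 0.27, ETV4 from 0.03 to 0.18 and SPRED1 from 0.04 to 0.17. DUSP6 stood at 0.10 with quantile normalization and at 0.09 with lowess centring, below SPRED1 at 0.12 in both. PHLDA1 ran from -0.30 to -0.19, SPRY2 from -0.25 to -0.10, ETV5 from -0.20 to -0.06, FOSL1 from -0.18 to -0.10 and SPRY4 from -0.13 to -0.01. Not all of these settings are separate checks. For a member with 1 probe on the array, the settings for detection, dim signals and the brightest probe could not change the value. Median scaling left DUSP4 at 0.39, and the authors' values gave it 0.33, as quantile normalization did. With no scaling between the arrays, DUSP6, ETV4 and SPRED1 turned below 0, which left 2 genes above 0 and 8 below.

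**Figure D3:**
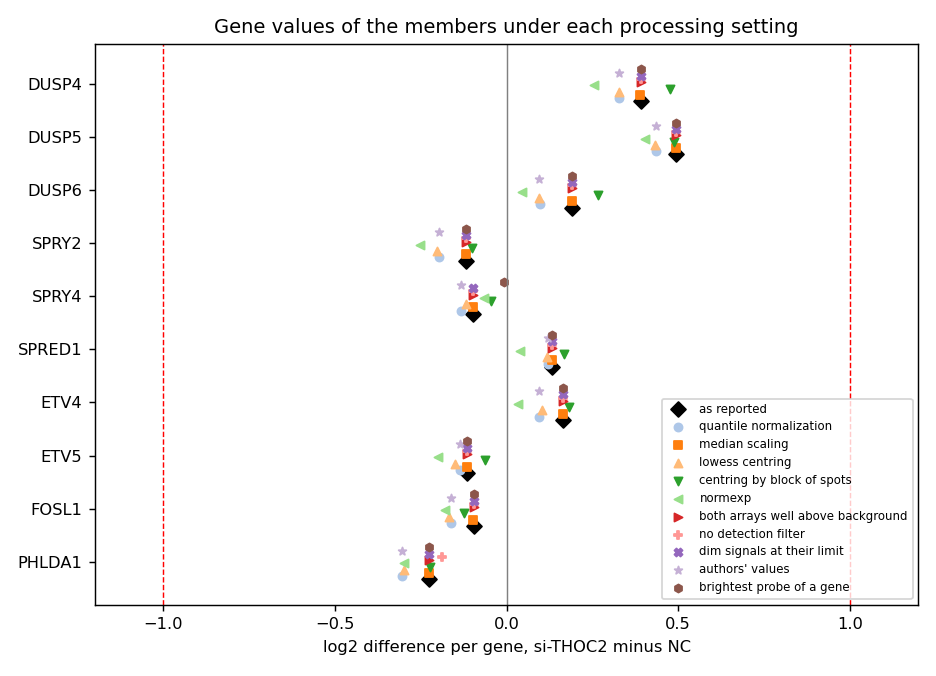
Log2 difference of each member gene, si-THOC2 minus NC (horizontal axis), as reported (black diamonds) and under each of 10 other processing settings (other symbols, set apart vertically for legibility). Red dashed lines mark 2-fold, and the symbols of each gene stay on 1 side of the grey line at 0.

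The kinases and adaptors that carry the signal were read from a list of 13 genes, of which 12 were compared through 16 probes. No probe of the list differed by 2-fold, 10 genes (83.3%) lay above 0 and 2 below, and the median log2 difference was 0.06. Of all genes compared, 53.4% lay above 0, a share that includes dim probes. The bright probes alone also had a median of 0.06, and their share above 0 was not counted. The split is therefore no result about the list. The kinase genes BRAF (signal 351 after NC and 324 after si-THOC2), MAP2K1 (2827 and 2661), MAP2K2 (1789 and 1686) and MAPK3 (315 and 276) had scaled log2 differences of 0.19, 0.22, 0.22 and 0.12. All of these raw signals were lower with si-THOC2, so the directions rest on the scaling. SOS1, a nucleotide exchange factor for RAS, had the highest value of the list, 0.61, from a dim probe at 18.3 after NC and 22.5 after si-THOC2, and stood at 0.24 with the normexp background correction. HRAS and SOS2, at -0.05 and -0.02, were the genes below 0. KSR1, a scaffold of the pathway, was not well above background.

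A further list of 18 genes held other inhibitors of the pathway and other DUSP phosphatase genes, of which 15 genes were compared through 20 probes. Whether each of these phosphatases acts on ERK was not examined. SPRY1, the paralog of SPRY2 and SPRY4, had the highest value of the list. Its signals were 28.9 with NC and 40.1 with si-THOC2 at one probe and 78.1 and 107 at the other. Both raw signals were higher with si-THOC2, and the scaled log2 differences were 0.78 and 0.76 with technical SDs of 0.15 and 0.13. As high a value was found in 5.26% and 1.77% of probes of like signal. With the normexp background correction, which shrinks dim probes, the gene's value was 0.38 in place of 0.77. The phosphatase genes DUSP8 and DUSP2 both had a log2 difference of 0.38. That of DUSP8 was the mean of 0.54 at a dim probe (28.0 and 32.8) and 0.22 at a brighter one (613 and 575). The raw signal of the brighter probe was lower with si-THOC2, so its direction rests on the scaling. DUSP10 had the lowest value among genes measured on both arrays, -0.17. The RAS-inactivating genes RASA1 and NF1 had log2 differences of -0.08 and -0.05, and the 4 NF1 probes ran from -0.34 to 0.20. No probe of the list was 2-fold higher and 1 was 2-fold lower, that of IL17RD, an inhibitor of receptor signaling. After NC, IL17RD gave a signal of 16.9. After si-THOC2 it was not well above background (4.82), and the limit of detection there allows no fold. RASA2 gave a signal of 26.4 after NC and was not well above background after si-THOC2 (12.3), which by the limit is at least 1.34-fold lower. Of the 15 genes, 10 (66.7%) lay above 0 and 5 below, with a median of 0.05. Of all genes compared, 53.4% lay above 0. DUSP7, SPRY3 and SPRED3 were not well above background.

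Other transcriptional outputs of ERK formed a list of 20 genes, of which 19 were compared through 29 probes, and no probe reached 2-fold. The immediate early genes EGR1 and FOS had signals of 21708 and 286 with NC and of 17681 and 227 with si-THOC2, with scaled log2 differences of 0.01 and -0.03. CCND1, which encodes cyclin D1, had signals of 3483 and 2774 and a log2 difference of -0.02. MYC had a log2 difference of 0.33, made of 0.54 at a probe with signals of 628 and 736 and of 0.13 at a probe with signals of 20.1 and 17.7. ELK3, an ETS factor, stood at 0.34. IER3 stood at 0.29, but both of its raw signals were lower with si-THOC2 (47550 and 47016 at one probe, 14048 and 13842 at the other), so its direction rests on the scaling. HMGA2, a chromatin protein of proliferating and transformed cells, was the gene of this list farthest from 0. Its 3 probes had signals of 4187 with NC and 2255 with si-THOC2, 1409 and 641, and 309 and 143, all lower on the si-THOC2 array. The log2 differences were -0.58, -0.83 and -0.80, with technical SDs of 0.05, 0.05 and 0.09, and at most 0.656% of probes of like signal were as low. With no scaling between the arrays the gene's value was -1.05, past 2-fold. POLR3G and ETV1 had log2 differences of -0.17 and -0.14, and the POLR3G probes stood at -0.01 and -0.34. ETV1, the paralog of ETV4 and ETV5, was uneven, with 4 probes from -0.77 to 0.40. In all, 11 genes (57.9%) lay above 0 and 8 below, beside 53.4% above 0 of all genes compared. The median of the list was 0.04, and TRIB2 was not well above background.

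**Figure D4:**
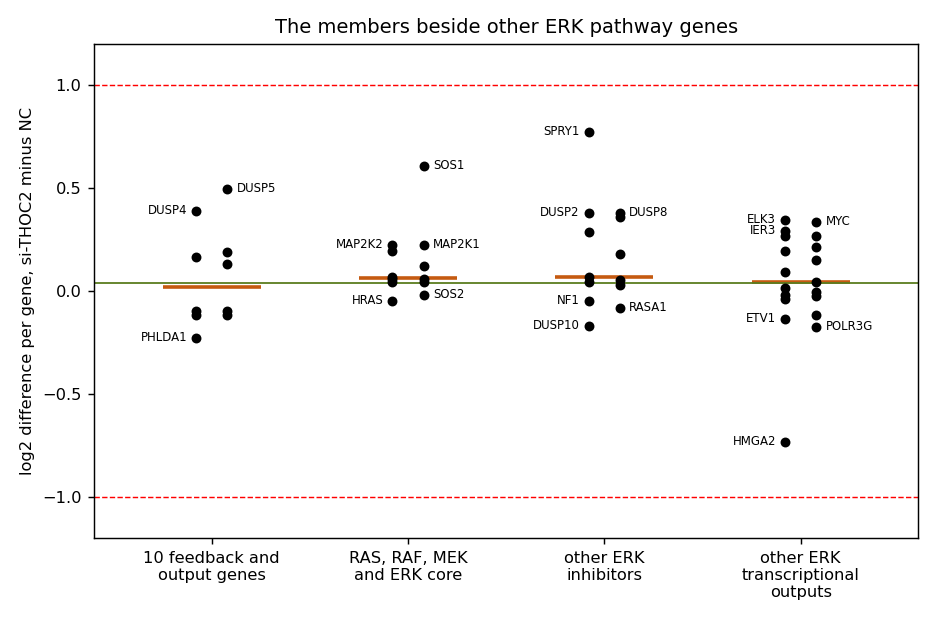
Log2 difference per gene, si-THOC2 minus NC (vertical axis), for the 10 feedback and output genes and the other ERK pathway lists, over genes well above background on both arrays (10, 12, 13 and 19 genes). Points are genes, orange bars are list medians, the green line is the median of all 15647 such genes (0.04), and red dashed lines mark 2-fold. The medians lie near the green line, and SPRY1, SOS1 and HMGA2 lie farthest from it.

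The label of the cells was checked against markers. SOX10, a defining gene of the melanocyte lineage, gave a signal of 6196 after NC and 5196 after si-THOC2, a log2 difference of 0.06. MITF was well above background at 2 of 3 probes with a log2 difference of -0.03, whereas the pigment genes PMEL, TYR and TYRP1 were not well above background on either array, and MLANA was so at 1 probe on the si-THOC2 array alone (18.7), by the limit of detection at least 1.58-fold higher. The other genes of the lineage list lay farther from 0 than SOX10 and MITF and on opposite sides: S100B gave a signal of 199 after NC and 102 after si-THOC2 (log2 difference -0.66), and DCT, a pigment gene, gave dim signals of 18.0 and 24.4 (0.75). All 5 genes of a further list of genes expressed in melanoma cells, AXL, VIM, TNC, CSPG4 and MIA, were measured on both arrays. Their log2 differences ran from -0.22 to 0.20. The highest, that of CSPG4, was the mean of 0.43 at a dim probe (45.8 and 49.9) and -0.03 at a bright one (20419 and 16101). No state of the cells was read from these 5 genes. Of 9 markers of other cell types, EPCAM, CDH1, KRT5 and COL1A1 were not well above background. The other 5 (KRT14, PTPRC, CD3E, PECAM1 and PDGFRB) had at least 1 probe above it, with signals of at most 168. Of these 5, 4 (80%) had a log2 difference above 0, beside 53.4% of all genes compared, and their median was 0.43. CD3E stood at 0.87, from signals of 25.3 and 37.4. KRT14 gave signals of 83.9 and 104 at one probe (0.62), and its other probe was well above background with si-THOC2 alone (26.9) and by the limit at least 2.28-fold higher, the one probe of these markers past 2-fold. Their part in the differences of the ERK genes was not tested. In bulk RNA, fewer cells of a type and less RNA per cell cannot be told apart.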

How the data were processed

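Total RNA of 1 NC sample and 1 si-THOC2 sample was hybridized to 1 array each. The authors deposited scanner output from Agilent Feature Extraction 10.7.1.1, named in the submitters' processing notes, in which each spot has a background-subtracted intensity, its error, and marks for outliers and for a signal well above background. The authors also deposited normalized log2 values, used as an alternative, and a table of their own fold comparison, in which signed folds are a score, which was not used. Control spots and outlier spots (230 and 253) were left out, log2 signals were averaged over the spots of each probe, and each array's 75th percentile was subtracted. A probe was compared where either array had it well above background, and genes were given the mean over such probes. The technical SD is the median SD over the 15 probes with repeated spots nearest in signal. Precision is limited by the number of arrays, which was 1 per condition.

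The 10 members and the gene lists were chosen with earlier results of these data known. Named genes were the members, THOC2, the marker genes, and, in each other ERK list, the 3 lowest genes below 0 and 3 highest above it among those measured on both arrays. Some genes of the list of kinases and adaptors are not reported here, and its counts and median leave them out. BRAF, MAPK3, EGR1, FOS, CCND1, IL17RD, RASA2 and the genes not above background were named beside that rule, after their values were seen. Alternatives were quantile normalization, median scaling, lowess centring (span 0.3), centring within 16 by 8 blocks of spots, normexp (offset 50, limma 3.58.1 in R 4.3.3), detection on both arrays, dim signals set to their limit, no detection filter, the authors' log2 values, the brightest probe of a gene, and a 1.5-fold threshold. The methods' t-test needs more than 1 array per condition and could not be run. Calculations used Python 3.11.15, numpy 2.4.6, pandas 2.3.3 and statsmodels 0.14.6, and were tested on simulated data.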

Additional observations from a re-analysis of the deposited data

How the results depend on the processing

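No member probe was called in either direction under any alternative run, the 1.5-fold threshold included. At 1.5-fold, 1948 of all 25345 probes compared were lower and 1556 higher. How many of the bright probes passed 1.5-fold was not counted, so the absence of calls is no result about the members. The median of the member genes stayed between -0.02 and 0.06 under the alternatives with a common scale. An alternative with no scaling between the arrays, chosen after seeing the data, gave -0.29, beside -0.29 for the median of all genes, and that setting is by construction the reported one shifted by 0.31. THOC2 stood at -0.51 with normexp, which shrinks dim probes, at -1.42 by its brightest probe, and at -1.34 with no scaling, against -1.03 as reported. The median of the listed kinases and adaptors was -0.01 with normexp. Leaving out the detection filter moved the median of all genes to 0.24. By the brightest probe of a gene, NF1 turned to 0.20 and ETV1 to 0.05, POLR3G went to -0.01, DUSP8 to 0.22 and MYC to 0.54. With normexp, NF1 turned to 0.01, and SPRY1 went to 0.38, SOS1 to 0.24, MAP2K1 and MAP2K2 to 0.10, DUSP8 to 0.19, DUSP2 to 0.22, ELK3 to 0.20, ETV1 to -0.01, HRAS to -0.14, RASA1 to -0.14 and DUSP10 to -0.25. IER3 went to 0.19 with lowess and to -0.02 with no scaling. The calls over all probes changed with the processing. As reported, 844 were lower and 743 higher (53.2% lower), most of them at dim probes. Lowess gave 633 and 856 (42.5%), normexp 33 and 79 (29.5%), and detection on both arrays 81 and 184 (30.6%). Dim signals set to the limit gave 225 and 476 (32.1%), and no filter 1929 and 3127 (38.2%). The 1.5-fold threshold gave 1948 and 1556, and no scaling 1511 and 557 (73.1%). No paired analysis was possible because each condition was measured on a single array, and leaving out a replicate was likewise not run. Dim probes limit the reading: below a log2 signal of 6 the median technical SD was 0.39 over 20 probes.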

Other observations

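The array also carries 6 probes for long noncoding RNAs named after DUSP4 or SPRY2. Scanner software placed 2 of them well above background with both siRNAs. The signal of lnc-DUSP4-1 was 23.2 after NC and 25.4 after si-THOC2, a log2 difference of 0.44, and that of lnc-DUSP4-4 was 47.3 and 52.4, a log2 difference of 0.46. The value of DUSP4 itself was 0.39. Each of these RNAs was read by 1 dim probe, and they were chosen after the value of DUSP4 was seen. Their technical SDs, and the share of probes of like signal as high, were not computed. The likeness of these values to that of DUSP4 is therefore no result.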
